A study of Mus musculus with 12 samples.

Results

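The small leucine-rich proteoglycans are secreted proteins of the extracellular matrix, and 8 of their genes, Bgn, Dcn, Aspn, Lum, Fmod, Prelp, Omd and Ogn, were followed here through bulk RNA-seq of 12 subcutaneous mouse tumors. The 8 were picked by name out of 22630 genes, as members of this protein family, and the family was picked with the group levels of its genes, that of Bgn above all, already known. Differences between groups in these 8 genes are therefore given as a description. All tumors grew from KCip53-1, a mouse pancreatic cancer line that carries Ptf1a-Cre, TREp53R270H and R26 rtTa/rtTa. In this line Cre driven from Ptf1a, a gene of the pancreatic epithelium, had switched on the reverse tetracycline transactivator, so that doxycycline (dox) turned on mutant p53R270H together with a dsRed reporter. All 3 groups shared these alleles. The hosts were immunocompromised NSG mice, 8 to 10 weeks of age, each given 500000 cells in 50% Matrigel at each of 2 sites. The 4 no-dox tumors never had dox. The 4 plus-dox tumors grew for 36 days in hosts whose water held dox at 0.2 g/l and 5% sucrose, and the 4 off-dox tumors had it for 33 days followed by 3 days without. The labels do not say which tumors shared a mouse, so the tests below measure the spread between tumors, some of which may share a host. The line was a single one, sorted for dsRed, and the host supplied the stroma, so a transcript of tumor cells and the same transcript of host cells are both mouse and cannot be told apart here.

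Small leucine-rich proteoglycans carry a curved array of leucine-rich repeats that lies along collagen fibrils and sets their diameter and spacing. Their protein cores also hold growth factors of the TGF-beta family in the matrix, and several bear chondroitin, dermatan or keratan sulfate chains. Once released by proteases, biglycan and decorin can act on receptors of innate immune and epithelial cells. In pancreatic cancer they are known mainly as products of the fibroblasts of the dense tumor stroma. By sequence the family falls into classes. Biglycan, decorin and asporin form one, lumican, fibromodulin, PRELP and osteomodulin another, and osteoglycin belongs to neither.

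The 8 genes lay at 4 places in the mm9 genome, on the coordinates given with the files. Bgn was by itself on chromosome X (70728974 to 70741275, plus strand). Dcn (chromosome 10, 96942134 to 96980796) and Lum (97028135 to 97035337) were neighbours on the plus strand, 47338 bp apart with no other gene between them. Prelp (chromosome 1, 135806882 to 135817978, minus strand) and Fmod (135934092 to 135944854, plus strand) were neighbours 116113 bp apart. Aspn (chromosome 13, 49639812 to 49662931), Omd (49678116 to 49687978) and Ogn (49703440 to 49719869) followed each other on the plus strand with gaps of 15184 and 15461 bp. The counts were sums over the unambiguous exonic spans of each gene.

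The upstream sequence is shown for Bgn, whose levels separated the plus-dox from the no-dox tumors, and for Fmod, whose levels varied most. Each run is the 250 bases before the RefSeq start site (promoter table of build GRCm38.p6), found once in mm9 in a search of 20000 bp around each gene, at chrX:70728690-70728939, plus strand, for Bgn and at chr1:135933581-135933830, plus strand, for Fmod. The RefSeq start lay upstream of the gene start given above, by 34 bp for Bgn and 261 bp for Fmod. Capitals mark GC boxes (GGGCGG on either strand) in Bgn and SMAD boxes (CAGAC on either strand) in Fmod.
Bgn: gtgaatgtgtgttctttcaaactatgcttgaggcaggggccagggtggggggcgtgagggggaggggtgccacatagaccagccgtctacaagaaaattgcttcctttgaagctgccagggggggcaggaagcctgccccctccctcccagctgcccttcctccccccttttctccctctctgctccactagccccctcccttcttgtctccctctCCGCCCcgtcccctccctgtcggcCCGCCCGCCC
Fmod: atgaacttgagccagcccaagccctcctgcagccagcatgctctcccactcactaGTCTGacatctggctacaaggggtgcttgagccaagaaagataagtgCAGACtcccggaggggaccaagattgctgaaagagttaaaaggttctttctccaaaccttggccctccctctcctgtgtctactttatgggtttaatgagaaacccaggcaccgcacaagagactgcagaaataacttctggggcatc
The Bgn stretch had a GC content of 64.4% with 7 CpG dinucleotides, and 3 GC boxes, of which the last 2 overlap. The Fmod stretch had a GC content of 51.2% with 2 CpG dinucleotides and 2 SMAD boxes. Of 32851 promoters in the table, searched over the same length, 32.7% held a GC box and 42.2% a SMAD box. Promoters of 6 of the 8 genes were in the table, those of Prelp, Aspn, Omd and Ogn besides these, and the same search covered 6. Among them Prelp had 1 SMAD box, and Aspn and Ogn had TATA boxes (TATAAA, in 12.4% of all promoters). E-boxes (CANNTG, in 66.2% of promoters) occurred in Bgn, Fmod, Aspn and Ogn. AP-1 sites (TGANTCA), CArG boxes and p53 half-sites were matched in none of the 6, against 6.75%, 1.47% and 7.13% of all promoters. These are letter matches in a window, not sites.

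Gene counts summed to 19845923 to 33137609 reads in a tumor, with group medians of 28388605 (no-dox), 24814194 (plus-dox) and 20959471 (off-dox). The share of mapped reads that fell on genes was 88.4 to 89.4% in no-dox, 82.2 to 87.1% in plus-dox and 81.1 to 85.8% in off-dox tumors, so it moved with the groups. Plus-dox tumor 2 and off-dox tumor 4 stood apart from the rest on the first principal component of all genes, which carried 50.4% of the variance. Gene by gene, the fold changes of members are given with and without both. Values of the partner lists include both tumors. Trp53 did not check the labels, since its RPKM (reads scaled to exon length and to the number of mapped reads), which pools the endogenous gene and any transgene reads that map to it, was 40.1 to 57.4 in no-dox, 40.4 to 56.0 in plus-dox and 41.6 to 45.4 in off-dox tumors. Epithelial markers of the labelled carcinoma were present (Krt8 318 to 973 RPKM), although Epcam was only 7.76 RPKM in plus-dox tumor 2 and 40.9 in off-dox tumor 4, against 72.3 or more in the other 10.

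All 8 genes passed the filter on low counts, and their levels lay far apart. RPKM, which is scaled by exon length, averaged 345 for Bgn over the 12 tumors, 114 for Dcn, 33.9 for Lum, 23.4 for Aspn, 15.7 for Prelp, 9.01 for Fmod, 4.78 for Ogn and 2.0 for Omd. Bgn ranked 175 and Dcn 566 by mean RPKM among all genes, whereas Ogn and Omd ranked 9325 and 11515. The order Bgn, Dcn, Lum, Aspn held in each of the 12 tumors, with the narrowest step between Lum and Aspn, 1.03-fold in plus-dox tumor 1. Aspn exceeded Prelp, and Prelp exceeded Fmod, in 10 of 12 tumors each. Fmod exceeded Ogn in only 8 of 12, so that these neighbours in the lower part of the order were not separated beyond their spread. Ogn exceeded Omd in 12 of 12 tumors, but by only 1.03-fold in off-dox tumor 1. The least abundant, Omd, rested on 28.5 to 152.6 expected counts per tumor, and the fewest for any other member was 198, for Ogn, so counting error weighs most on Omd.

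**Figure D1:**
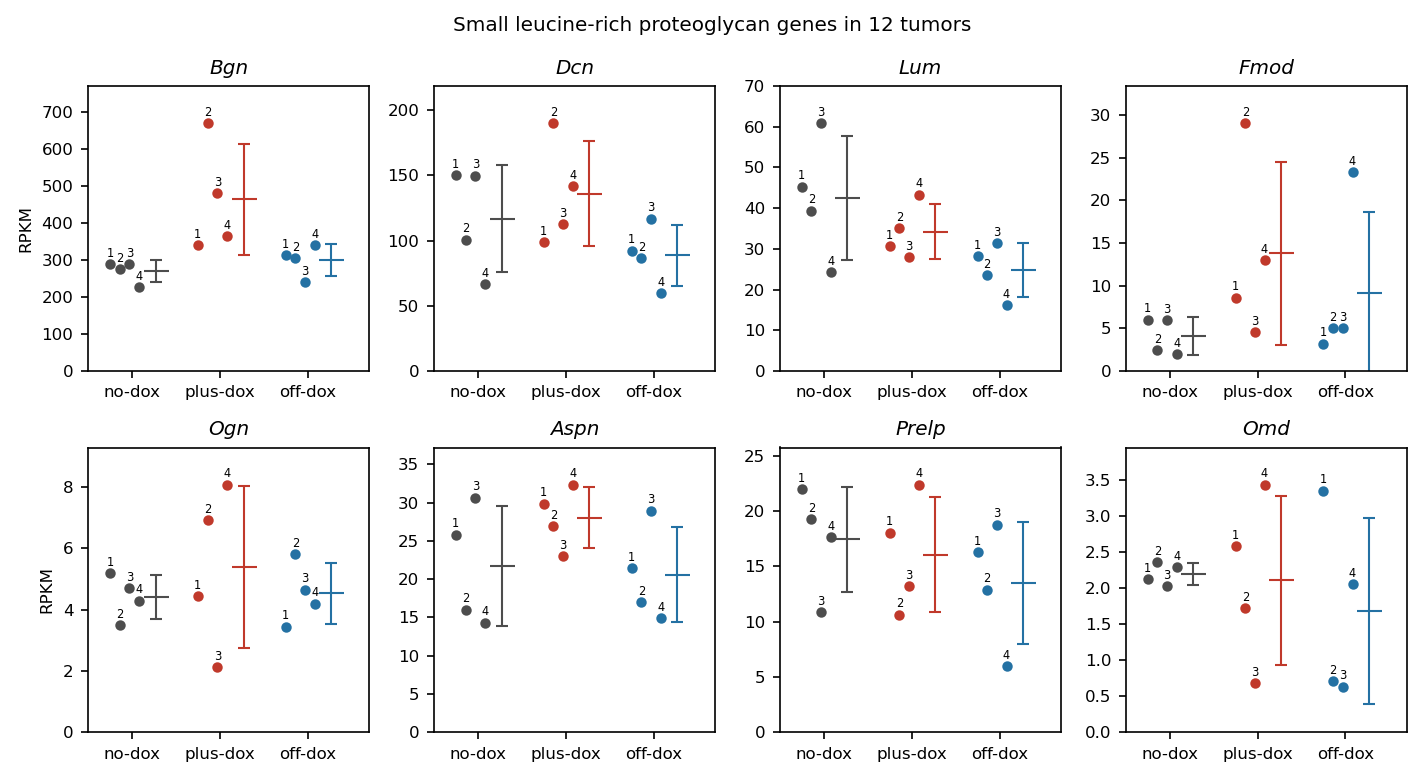
RPKM of each of the 8 genes in each tumor (points, numbered by replicate) by group, with the mean and SD of the 4 tumors beside them (horizontal line and bar, cut at 0 for Fmod off dox). Bgn is the gene whose 4 plus-dox points, 341 to 671, all lie above the 4 no-dox points, 227 to 289.9, while single tumors set the high points of Fmod.

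Biglycan, encoded by Bgn, is a collagen-binding proteoglycan that can also signal through Toll-like receptors. Its RPKM was 289, 275, 289.9 and 227 in no-dox tumors 1 to 4, 341, 671, 481 and 366 in plus-dox tumors 1 to 4, and 314, 306, 239.9 and 339.6 in off-dox tumors 1 to 4. Every plus-dox tumor was above every no-dox tumor, and tumor 2 was the highest of them. The group means were 270.2 ± 29.7 (SD, n = 4), 465 ± 150 and 299.8 ± 42.5, and on the log2 scale plus-dox exceeded no-dox tumors by 0.80 (SE 0.22, edgeR). Without plus-dox tumor 2 and off-dox tumor 4 it was 0.56, and it lay between 0.57 and 0.94 when each tumor was left out in turn. Non-overlap of this kind, plus-dox above no-dox in RPKM, held for 756 of 17561 genes tested (4.30%), and 1 of the 8 members was among them. Off dox, the highest tumor (339.6) fell just short of the lowest plus-dox tumor (340.8). That separation held for 164 of 17561 genes (0.934%) with off-dox below plus-dox, included 1 of the 8 members, and was lost when library sizes were scaled by TMM, where the Bgn levels of these groups overlapped. In bulk tumors like these, fewer cells of a type and less RNA per cell cannot be told apart.

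Decorin, encoded by Dcn, binds collagen and TGF-beta and can engage receptor tyrosine kinases such as EGFR and MET. Its RPKM was 150.4, 101, 149.6 and 66.5 in no-dox tumors, 98.9, 190.0, 113 and 142 in plus-dox tumors, and 92.1, 86.3, 117 and 59.6 in off-dox tumors. The 3 groups overlapped throughout, since the no-dox tumors alone spread from 66.5 to 150.4. Means were 117 ± 40.8, 136 ± 40.3 and 88.7 ± 23.5 (SD, n = 4 each). Log2 fold changes were 0.23 (SE 0.28) for plus-dox over no-dox and -0.60 (SE 0.28) for off-dox over plus-dox, and without plus-dox tumor 2 and off-dox tumor 4 they became 0.02 and -0.24.

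Asporin, encoded by Aspn, lacks the glycosaminoglycan chain of its relatives and competes with decorin for collagen. It varied least of the 8, with 2.26-fold between its lowest and highest tumor. Its RPKM was 25.8, 16.0, 30.6 and 14.3 in no-dox tumors, 29.9, 26.9, 23.0 and 32.3 in plus-dox tumors, and 21.4, 17.0, 28.96 and 14.9 in off-dox tumors. The highest level was that of plus-dox tumor 4, but the groups overlapped, since no-dox tumors 1 and 3 and off-dox tumor 3 lay above the lowest plus-dox tumor. The log2 fold change was 0.37 (SE 0.25) for plus-dox over no-dox and -0.05 (SE 0.25) for off-dox over no-dox. The latter changed sign in 5 of 21 alternative settings. Without plus-dox tumor 2 and off-dox tumor 4 the changes were 0.38 and 0.06.

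Lumican, encoded by Lum, is a keratan sulfate proteoglycan of the cornea and of connective tissue that shares a collagen site with fibromodulin. Its RPKM was 45.3, 39.4, 60.9 and 24.2 in no-dox tumors, 30.6, 35.1, 28.01 and 43.3 in plus-dox tumors, and 28.2, 23.6, 31.4 and 16.2 in off-dox tumors. Here the no-dox group had the highest and the off-dox group the lowest mean, 42.5 ± 15.2 against 34.3 ± 6.72 with dox and 24.9 ± 6.59 off dox, but no-dox tumor 4 lay among the off-dox tumors. The log2 fold change was -0.30 (SE 0.26) for plus-dox and -0.75 (SE 0.26) for off-dox, each over no-dox. The latter was -0.49 without no-dox tumor 3, -0.93 without no-dox tumor 4, and -0.60 without plus-dox tumor 2 and off-dox tumor 4. The plus-dox change was -0.33 without plus-dox tumor 2 and off-dox tumor 4.

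Fibromodulin, encoded by Fmod, guides the assembly of collagen fibrils in tendon and other dense tissue. Its RPKM was 6.01, 2.40, 5.93 and 1.97 in no-dox tumors, 8.58, 29.0, 4.56 and 13.0 in plus-dox tumors, and 3.21, 5.05, 5.05 and 23.3 in off-dox tumors. Plus-dox tumor 2 and off-dox tumor 4 were far above the rest of their groups, and over all tumors Fmod spanned 14.7-fold, the widest range of the 8. The log2 fold change over no-dox was 1.77 (SE 0.71) in plus-dox and 1.23 (SE 0.71) in off-dox tumors. Without those 2 tumors the changes were 1.08 and 0.14. The same 2 tumors were high for the summed markers of cartilage and bone (37.7 and 14.3 RPKM against 1.43 to 5.31 in the other 10), mostly Acan, the proteoglycan aggrecan, at 31.4 and 7.96 RPKM, and 2 bone genes were highest there as well, Ibsp at 2.75 and 1.98 RPKM against at most 1.07 elsewhere and Sp7 at 2.03 and 1.36 against at most 0.41. The other genes of the same list did not all follow. Comp was at 1.22 and 2.60 RPKM there, against up to 2.31 in plus-dox tumor 4. Matn3 was at 0.22 and 0.12 RPKM, against up to 0.20 in plus-dox tumor 4. Bglap and Col2a1 were near 0 in all 12 tumors (at most 0.07 and 0.32 RPKM). The part of such cells in the Fmod levels was not tested. The summed tendon markers were not high there, at 19.2 and 11.02 RPKM against 14.7 to 45.6 in the other 10 tumors. Scx was the largest part of that sum in both, at 10.1 and 8.07 RPKM. The defining tendon gene Tnmd was at 0.14 and 0.08 RPKM. Thbs4 of the same list was at 7.48 and 1.67 RPKM, against 0.59 to 9.67 in the other 10 tumors.

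PRELP, encoded by Prelp, anchors basement membranes to connective tissue through heparan sulfate. Its RPKM was 22.0, 19.2, 10.9 and 17.7 in no-dox tumors, 18.0, 10.6, 13.2 and 22.4 in plus-dox tumors, and 16.3, 12.9, 18.7 and 6.0 in off-dox tumors. The groups overlapped, and the lowest values of the plus-dox and off-dox groups came from tumors 2 and 4, those with the highest Fmod. Log2 fold changes over no-dox were -0.11 (SE 0.31) with dox and -0.34 (SE 0.31) off dox, or 0.03 and -0.10 without those tumors.

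Osteoglycin (Ogn), a keratan sulfate protein found in bone and vessel walls, had an RPKM of 5.19, 3.49, 4.70 and 4.29 in no-dox tumors, 4.45, 6.91, 2.12 and 8.07 in plus-dox tumors, and 3.44, 5.81, 4.65 and 4.20 in off-dox tumors. Osteomodulin (Omd), a protein of mineralised matrix, had 2.12, 2.36, 2.02 and 2.29 in no-dox tumors, 2.58, 1.72, 0.68 and 3.43 in plus-dox tumors, and 3.35, 0.71, 0.63 and 2.06 in off-dox tumors. For each, the 4 no-dox tumors lay close together and the plus-dox tumors spread to both sides of them. The SD of Omd was 0.15 without dox, 1.18 with dox and 1.29 off dox, on means of 2.20, 2.10 and 1.69, and this difference in spread was not tested. Their log2 fold changes over no-dox were 0.28 (SE 0.32) and -0.07 (SE 0.53) with dox, and 0.06 (SE 0.32) and -0.35 (SE 0.53) off dox. Without plus-dox tumor 2 and off-dox tumor 4 they were 0.12 and -0.005 with dox, and 0.09 and -0.48 off dox.

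Set side by side, 5 of the 8 genes were higher in plus-dox than in no-dox tumors, 3 of 8 were higher in off-dox than in no-dox tumors, and all 8 were lower in off-dox than in plus-dox tumors. The median log2 fold changes were 0.26, -0.20 and -0.44, against 0.01, 0.01 and 0.00 over all 17561 genes tested, of which 51.4%, 50.7% and 49.8% were higher. The sign between off-dox and plus-dox turned under 1 to 3 of 21 alternatives for Fmod, Ogn, Prelp and Omd, for Fmod without plus-dox tumor 2. Without plus-dox tumor 2 and off-dox tumor 4 the members' medians were 0.08, -0.02 and -0.29, and 6, 4 and 0 of the 8 were higher. These comparisons share tumors, so they are not independent of each other, and as a description of genes picked with levels known the counts carry no test. The limits for a call, taken from the study, were an adjusted p below 0.1, a change above 1.5-fold, a mean above 0.25 RPKM and a length above 250 bp. The study applied them to DESeq2, whereas the test here was edgeR's quasi-likelihood test with Benjamini-Hochberg adjustment over all genes, and DESeq2 served as an alternative. By edgeR no member passed, and by DESeq2 Bgn and Lum did in 1 comparison each. The members' adjusted p ranged from 0.32 to 0.96 for plus-dox against no-dox and from 0.15 to 0.92 for off-dox against no-dox, and was 1 for all 8 between off-dox and plus-dox.

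The counts of members read against all genes were as follows. With edgeR 0 of 17561 genes (0%) passed in plus-dox against no-dox, 235 (1.34%) in off-dox against no-dox, 181 of them higher (0 to 789 when 1 tumor was left out), and 0 (0%) in off-dox against plus-dox. At an unadjusted p under 0.05 the test held 2 of the 8 members and 13.7% of all genes in the first comparison, 1 member and 20.4% in the second, and 1 member and 3.06% in the third. DESeq2 called Bgn in plus-dox against no-dox, with an adjusted p of 0.062 (128 of 15113 genes called, 0.847%) and, with moderated fold changes, 0.069 (90 of 15784, 0.570%). It called Lum as lower in off-dox than in no-dox tumors with an adjusted p of 0.068 (615 of 14777, 4.16%), but not with moderated fold changes, where the change was under 1.5-fold. In off-dox against plus-dox it called no member, with 6 genes called in all, or 4 with moderated fold changes. The calls of Bgn and Lum thus differed between tools.

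**Figure D2:**
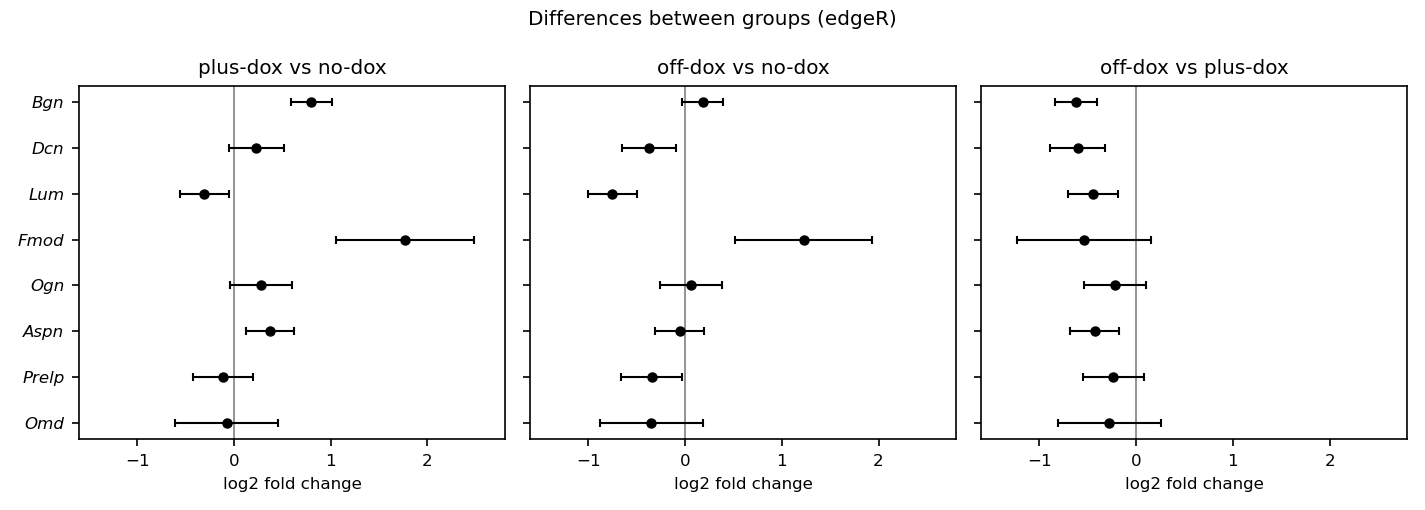
Log2 fold change of each gene from edgeR (points) with its standard error (bars) in the 3 comparisons, 4 tumors per group, with a grey line at 0. Fmod has the largest value against no-dox, 1.77 and 1.23, with the widest bars, and in off-dox against plus-dox the points of all 8 genes lie left of 0.

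Bgn made up most of the family in every tumor. Of the summed RPKM of the 8 genes, which was 358 to 555 in no-dox, 534 to 971 in plus-dox and 446 to 482 in off-dox tumors, Bgn took 52.3 to 72.9%. Its share averaged 57.1 ± 5.41% without dox, 65.8 ± 6.24% with dox and 64.7 ± 7.99% off dox (SD, n = 4 each), while the share of Lum averaged 8.66 ± 1.74%, 5.11 ± 1.48% and 5.38 ± 1.49%. The ranges of the groups overlapped for each of these. Dcn took 12.8 to 27.5% and the other 5 genes 0.10 to 6.49% each. The 2 neighbours on chromosome 10 gave a Dcn to Lum ratio of 3.32, 2.55, 2.46 and 2.74 in no-dox tumors, 3.23, 5.42, 4.03 and 3.27 in plus-dox tumors, and 3.27, 3.66, 3.72 and 3.67 in off-dox tumors. Of the no-dox tumors, tumor 1 alone reached the range of the other groups. The Prelp to Fmod ratio ran from 0.26 in off-dox tumor 4 and 0.37 in plus-dox tumor 2 to 8.96 in no-dox tumor 4.

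**Figure D3:**
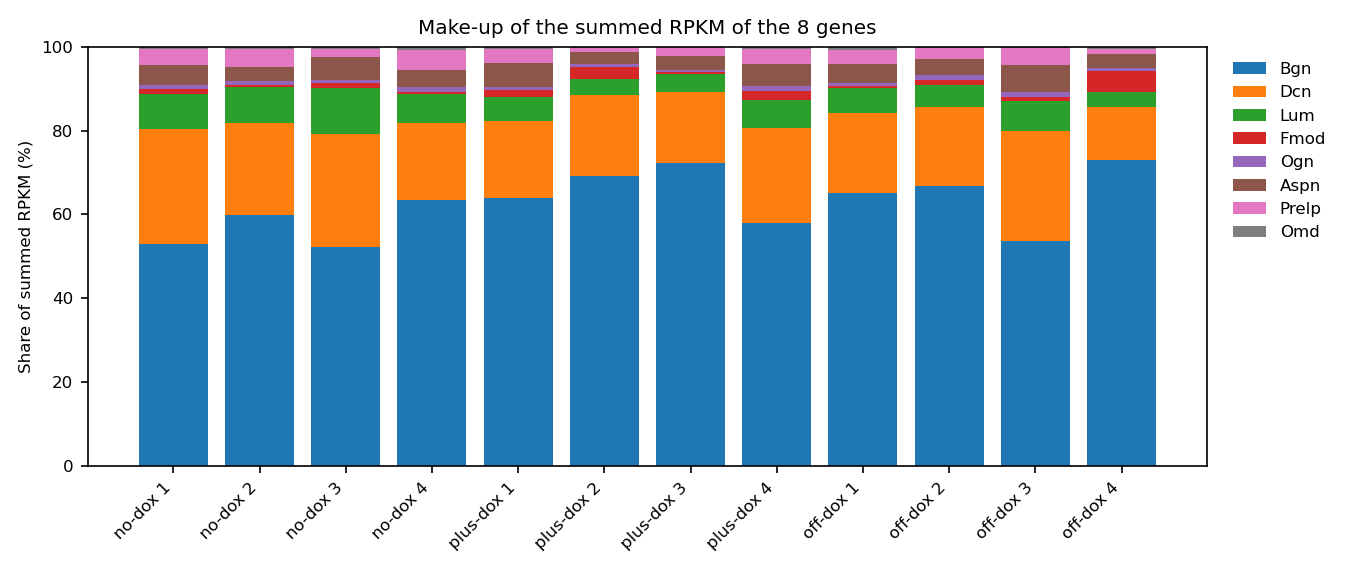
Share of each gene in the summed RPKM of the 8 genes (vertical axis, percent) for each of the 12 tumors (stacked bars). Bgn and Dcn together fill most of each bar, Bgn between 52.3 and 72.9%, and Fmod is a visible band chiefly in plus-dox tumor 2 and off-dox tumor 4, where it reaches 5.01%.

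Whether members rose and fell together from tumor to tumor was tested over the 12 tumors on log2 CPM. These are read counts scaled to library size by TMM, with a prior count of 2. The family was picked with group levels in these same tumors known. Differences between groups enter r over the 12 tumors, so r and its p are not independent of that choice. Deviations from the group means leave those differences out. Of 28 pairs 21 had a positive Pearson r, with a median of 0.21 and a range from -0.58 to 0.79, and 2 passed an adjusted p of 0.05 (permutation test, 100000 resamples, two-sided, Benjamini-Hochberg over the 28 pairs). Dcn and Lum, the neighbours on chromosome 10, had r = 0.79 (permutation p = 0.0021, adjusted 0.044) and Spearman's rho of 0.86 (permutation p = 0.00065, adjusted 0.018). Without the 2 tumors farthest from the median of Dcn r was 0.84, and on deviations from the group means it was 0.85 (permutation, adjusted p = 0.035). Dcn and Aspn had r = 0.78 (permutation p = 0.0031, adjusted 0.044) with rho 0.70 (permutation p = 0.014, adjusted 0.17), and on deviations from the group means r was 0.75 with an adjusted p of 0.15. Without the 2 farthest tumors it was 0.79. Lum and Aspn, at r = 0.65 (adjusted p = 0.14, permutation) with rho 0.65 (adjusted 0.17) and 0.46 without the 2 farthest tumors, reached 0.87 on deviations from the group means (adjusted p = 0.035).

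**Figure D4:**
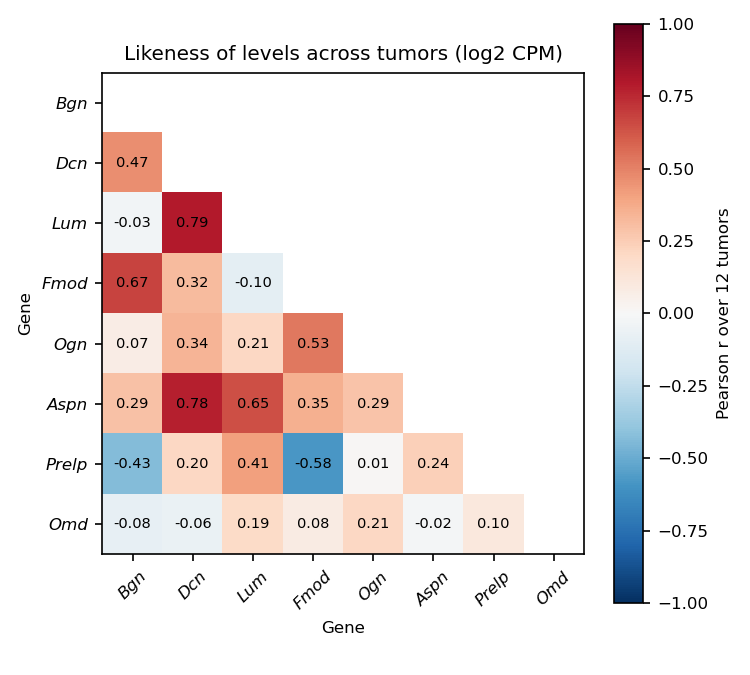
Pearson r of log2 CPM over the 12 tumors for each of the 28 pairs of genes (both axes, genes in the order of the list), coloured from blue (-1) to red (1). The darkest red squares are Dcn with Lum (0.79) and Dcn with Aspn (0.78), and the deepest blue is Fmod with Prelp (-0.58).

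The calls depended on single tumors. When each tumor was left out in turn the number of pairs past the threshold ran from 0 to 3. It was 0 when plus-dox tumor 4 was left out, when no-dox tumor 1, 3 or 4 was, and for any of the 4 off-dox tumors, and 1 when plus-dox tumor 1 was left out. Over all tumors the member with the highest r to Fmod was Bgn, but this pair did not pass the threshold. Bgn and Fmod had r = 0.67 (adjusted p = 0.14, permutation) and rho 0.66 (adjusted 0.17), with 0.77 without the 2 tumors farthest from the median of Bgn but 0.43 without plus-dox tumor 2 and off-dox tumor 4. Fmod and Prelp had r = -0.58 (adjusted p = 0.27) and rho -0.35 (adjusted 0.62, permutation), which became 0.07 without those tumors and so rested on them. Fmod and Aspn went the other way, from r = 0.35 (adjusted p = 0.71, permutation) and rho 0.56 (adjusted 0.29) to r = 0.84 without them (adjusted p = 0.037, permutation). The neighbours on chromosome 13 did not resemble each other as Dcn and Lum did, with r of -0.02 for Aspn and Omd, 0.21 for Omd and Ogn and 0.29 for Aspn and Ogn, and this contrast between pairs was not tested.

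**Figure D5:**
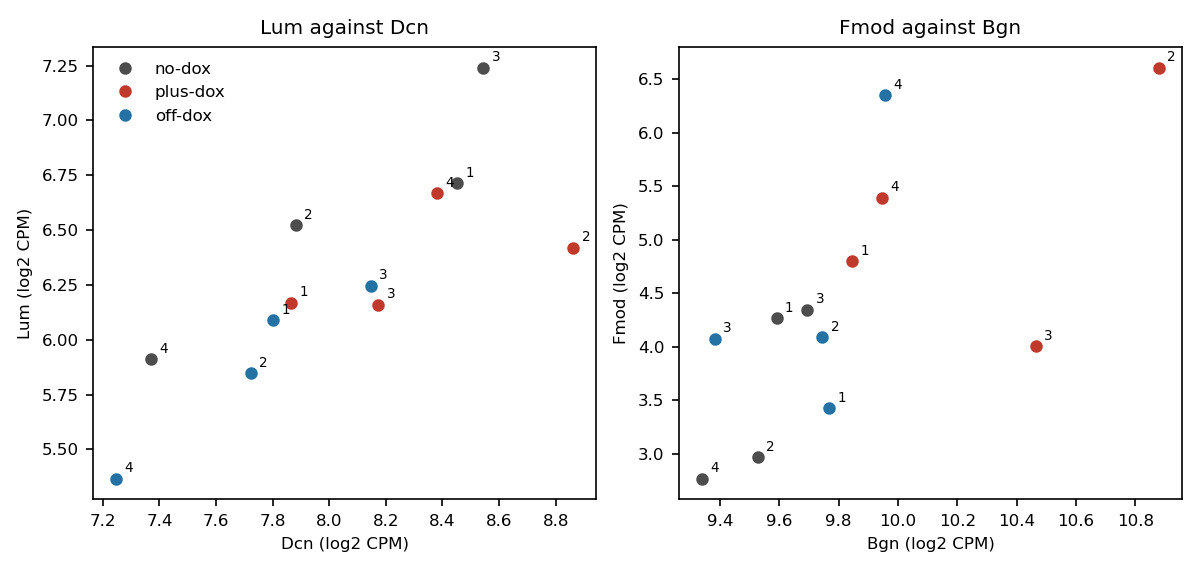
Levels in each tumor (points, coloured by group and numbered by replicate) as log2 CPM, Lum against Dcn on the left and Fmod against Bgn on the right. Lum climbs with Dcn across all 3 groups (r = 0.79), whereas on the right plus-dox tumor 2 and off-dox tumor 4 hold the top of the Fmod axis and plus-dox tumor 3 lies to the side.

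Among 14350 expressed genes, those whose log2 CPM were most like each member over the 12 tumors are given as a description. For Bgn they were Adam19, a membrane metalloprotease, Tgfb1i1, a focal adhesion protein, and Galntl4, with r of 0.96, 0.95 and 0.95. For Fmod they were Ebf1, a transcription factor, Ppm1f and Adcy4, with r of 0.96, 0.95 and 0.95, and each of these stayed at 0.90 or above without the 2 tumors that stood apart. Dcn was nearest to Arsi (0.91), Il11ra1 (0.90) and Fcgrt (0.90), and Lum to Fcgrt (0.91), Gria1 (0.88) and Alox5ap (0.87), so Fcgrt, the neonatal Fc receptor, was common to the pair. Aspn was nearest to Enox1 (0.89), Mfap4, a microfibril protein (0.87), and 2810405K02Rik (0.87). Prelp was nearest to 4632415L05Rik (0.95), 2310040G24Rik (0.95) and Apbb1 (0.94), Ogn to Rbbp8 (0.79), C7 (0.78) and Rtkn2 (0.77), and Omd to Rarres1 (0.89), Emid2 (0.84) and Zfp251 (0.84). The best match of Ogn was thus the weakest of the 8. Without the 2 tumors that stood apart, the matches of Bgn had r of 0.92, 0.92 and 0.89 and those of Prelp 0.87, 0.84 and 0.80. By rank, Mfap4 had a Spearman's rho of 0.62 with Aspn and Rtkn2 of 0.59 with Ogn.

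Markers of cells that could supply these transcripts moved between tumors as well. The summed RPKM of 10 fibroblast markers, all 10 found, was 332 to 628 in no-dox, 457 to 750 in plus-dox and 388 to 412 in off-dox tumors, highest in plus-dox tumor 2, which also had the highest Bgn, Dcn and Fmod. The 10 epithelial markers summed to 2326 to 3137 RPKM without dox, 1366 to 2059 with dox and 1079 to 2689 off dox. Thus the epithelial sum did not overlap between no-dox and plus-dox tumors, in the direction opposite to Bgn. Krt8 and Krt18 made up most of that sum. As single genes Krt8, Krt18 and Epcam separated these groups, whereas Krt7, Krt19, Cdh1, Cldn4, Cldn7, Esrp1 and Elf3 overlapped. Endothelial markers (7) reached 131 RPKM in plus-dox tumor 2 against 31.3 to 57.3 elsewhere. Cdh5 was the largest part of that sum, at 57.7 RPKM against at most 16.4 elsewhere. The rest were also highest there but rose less, such as Pecam1 at 22.7 against at most 13.5 and Tek at 2.03 against at most 1.74. The 8 adipocyte markers ran from 15.1 to 1353 RPKM and the 8 skeletal muscle markers from 9.08 to 1227 RPKM. By group, skeletal muscle ran from 9.08 to 173 RPKM without dox, 139 to 450 with dox and 9.99 to 1227 off dox, and adipocyte markers from 15.1 to 1353, 30.2 to 840 and 42.8 to 388. Pericyte and smooth muscle (17.8 to 44.2), macrophage (731 to 1236, 6 of 7 symbols found) and Schwann cell markers (5.17 to 17.3) overlapped between groups. Epidermis markers summed to 18.6 to 51.6 RPKM without dox, 9.32 to 25.05 with dox and 11.2 to 17.4 off dox. The sums of no-dox and off-dox tumors did not overlap, and the split was mainly that of Krt14, at 14.4 to 47.7 RPKM against 6.82 to 11.5. Krt5 was at most 0.89 RPKM in any tumor, and Krt1, Krt10, Lor and Krtdap overlapped between these groups. T and NK cell markers summed to 0.78 to 1.51 RPKM without dox, 2.44 to 3.45 with dox and 1.68 to 3.85 off dox. These sums were low, in a host strain bred to lack those cells, yet higher in every tumor given dox than in any no-dox tumor. Of single markers Nkg7 alone did the same, at most 0.385 RPKM without dox against 0.501 or more. Ncr1, Klrb1c, Cd3e, Cd3d and Cd8a overlapped. The part of any of these cells in the members' levels was not tested.

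The partners of the family were then read from 6 lists with 89 genes in all. The 14 collagens that the proteins bind were higher in plus-dox than in no-dox tumors for 12 and lower in off-dox than in plus-dox tumors for 13, with median log2 fold changes of 0.59 and -0.45. None of the 14 passed the limits in these comparisons by edgeR. Col1a1, a chain of type I collagen, averaged 372 ± 62.4 RPKM without dox, 620.3 ± 153 with dox and 373 ± 51.5 off dox (SD, n = 4), Col1a2, its partner chain, 434 ± 68.4, 611 ± 124 and 391 ± 13.9, and Col3a1, the type III chain, 451 ± 176, 674 ± 294 and 383 ± 85.1. Collagen Col11a2 passed in off-dox against no-dox, at 0.42 ± 0.05 against 0.20 ± 0.07 RPKM (log2 fold change 1.09, SE 0.28, edgeR adjusted p = 0.090), a call lost when the 8 tumors of that pair were fitted alone. DESeq2 without moderated fold changes also called Col1a1, Col5a1, Col11a2 and the receptor gene Lrp1 as higher in plus-dox than in no-dox tumors, and with moderated fold changes Col1a1 and Col11a2.

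Of 10 further genes of the family, 8 were higher in plus-dox than in no-dox tumors (median log2 fold change 0.35) and none passed. The most abundant were Tsku, a secreted inhibitor of growth factors (5.71 ± 0.52, 7.65 ± 2.07 and 7.18 ± 0.90 RPKM in no-dox, plus-dox and off-dox tumors), Podnl1 (5.13 ± 0.73, 6.10 ± 1.95 and 8.13 ± 4.45) and Podn, podocan (3.42 ± 0.93, 5.27 ± 1.70 and 3.48 ± 0.75). Kera and Epyc, of cornea and cartilage, were near 0, at most 0.08 and 0.14 RPKM. Of 27 genes that build and sulfate the glycosaminoglycan chains, 20 were higher with dox (median 0.21), 22 were lower off dox than on dox (median -0.09) and none passed. Among the most abundant of these, B3gnt2, which extends lactosamine chains, averaged 37.2 ± 5.14, 34.1 ± 2.34 and 35.8 ± 4.16 RPKM in the same order, B3gat3, which completes the linker of the chains, 27.5 ± 1.93, 26.4 ± 2.85 and 23.2 ± 2.01, and the xylose kinase gene Fam20b 25.9 ± 1.26, 23.7 ± 2.19 and 22.7 ± 3.10.

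Of 13 proteases known to cut or free these proteins, 12 were tested, 9 of them were higher with dox (median 0.49) and none passed. Mmp14, a membrane-bound metalloprotease, averaged 146 ± 6.0, 162 ± 27.4 and 143 ± 40.4 RPKM, Bmp1, which trims the propeptides of biglycan and of procollagen, 53.6 ± 8.36, 75.9 ± 20.6 and 77.4 ± 17.6, and Htra1, a secreted serine protease, 69.4 ± 8.37, 62.9 ± 13.5 and 59.6 ± 22.3. Of 14 receptors of the released proteins 7 were higher and 7 lower with dox (median 0.02). P2rx7, an ATP-gated channel, was the one that passed in off-dox against no-dox, at 4.80 ± 0.89 against 2.94 ± 0.26 RPKM (log2 fold change 0.74, SE 0.13, edgeR adjusted p = 0.079), a call likewise lost when the pair was fitted alone. Cd44, the hyaluronan receptor, averaged 139.8 ± 18.2, 138 ± 40.8 and 131 ± 47.6 RPKM, Cd14, the Toll-like co-receptor, 179 ± 42.2, 118 ± 47.8 and 107 ± 40.4, and Lrp1, an endocytic receptor, 29.6 ± 3.63, 45.3 ± 10.3 and 41.6 ± 1.66. The growth factor list held 11 genes, with the receptor genes Tgfbr1 and Tgfbr2 among them. Its median was 0.08 in plus-dox against no-dox, with none passing. Tgfb1 averaged 30.3 ± 2.22, 44.2 ± 25.3 and 41.7 ± 23.3 RPKM. Its tumors ran from 27.3 to 32.5 without dox, 27.4 to 81.5 with dox and 27.3 to 76.6 off dox, so the groups overlapped. Tgfb3 averaged 42.4 ± 7.73, 40.1 ± 12.0 and 39.7 ± 14.5, and the receptor gene Tgfbr2 50.9 ± 1.51, 55.8 ± 8.40 and 48.5 ± 10.1. The lists were chosen with earlier results known, so their counts are a description too.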

How the data were processed

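RNA-seq of 12 subcutaneous tumors (4 no-dox, 4 plus-dox, 4 off-dox) was analysed from per-tumor gene tables. Polyadenylated RNA was made into libraries that do not mark strand and read as 50-base single ends. Per the paper, genes were counted over exonic spans that were not ambiguous between genes. The submitters' processing notes name CASAVA 1.8.2, Bowtie 0.12.8, TopHat 1.4.1 and bedtools 2.16.2, and per the labels the build was mm9, with hg19 also listed. The authors deposited expected counts per RefSeq gene, which are fractional, and RPKM computed from them, which is scaled by exon length and by mapped reads.

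Expected counts were rounded to whole numbers. The 17561 genes whose counts added up to 10 or more entered edgeR 4.0.16 (R 4.3.3), with TMM scaling and a quasi-likelihood test of 3 groups in one fit, and p-values were adjusted by the Benjamini-Hochberg method over all of them. Calls used the limits that the study applied to DESeq2: a length above 250 bp, a mean above 0.25 RPKM, a change above 1.5-fold and an adjusted p below 0.1. SE is the absolute log2 fold change divided by the root of the F statistic. Correlations used log2 CPM with a prior count of 2 and scipy 1.17.1. Alternatives were DESeq2 1.42.0, other scaling and filters, the pair of groups alone, a replicate block, the share of reads on genes as a covariate, an adjusted p under 0.05, and leaving out tumors. Scripts were tested on simulated data. Replicates differed by more than sampling noise, so all 12 tumors counted.

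The 8 genes, the 6 partner lists and the 12 marker lists were chosen with earlier results of these data known. All 8 members were named, with the 3 genes most like each by Pearson r among genes above 0.25 RPKM and 250 bp, and, of each partner list, the genes called and the 3 with the highest mean RPKM. Genes named by DESeq2 calls alone, and list or marker genes given at their extremes, were chosen after their values were seen. Kera, Col2a1 and Kdr stood in both a partner list and a marker list. One further allele of the line, shared by all groups, is not reported here.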

Additional observations from a re-analysis of the deposited data

Results flagged for a closer look

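In 24 sets of 4 tumors (8 genes in 3 groups) the gap of the highest or lowest RPKM to its neighbour was compared with the whole range, and 1 set was past the limit. Chance alone flags about 1 in 20 such sets. The Fmod level of off-dox tumor 4, 23.3 RPKM, stood apart from the other off-dox tumors (3.21 to 5.05), with a gap that made up 0.908 of the range. The same tumor had the lowest Dcn, Lum and Prelp of all 12 (59.6, 16.2 and 6.0 RPKM).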

How the results depend on the processing

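No member change was called by edgeR, so the 21 alternatives could undo no call. Some of them left out a tumor of the group outside the comparison, which hardly moves a fold change. The yardstick of 1 SD includes the tumors that stood apart. For Fmod in off-dox against plus-dox it was 1.19, so -0.54 turning to -1.63 without off-dox tumor 4 stayed within it. Of 504 recomputed member fold changes (24 values under 21 alternatives each), 498 moved by less than 1 SD of the tumors. The other 6 moved further, and 18 changed sign. The 6 were Fmod, which fell to a log2 fold change of 0.51 in plus-dox against no-dox with moderated DESeq2 fold changes, and in off-dox against no-dox to 0.14 without off-dox tumor 4, alone or together with plus-dox tumor 2, and went to 2.60 with the share of reads on genes as a covariate, and Omd, which went to 1.36 and 1.42 over no-dox with that covariate. The share moved with the groups, so it and the treatment cannot be told apart in that fit. DESeq2 called 1 member in plus-dox against no-dox in either form, and 1 in off-dox against no-dox without moderation. It called 4 list genes in plus-dox against no-dox, or 2 with moderation. List genes called in off-dox against no-dox, 2 by edgeR, were 1 with no filter on counts and 0 for the 8 tumors of the pair alone, with the covariate or at an adjusted p under 0.05, and ran from 0 to 5 when each tumor was left out, 5 without off-dox tumor 1. Over all genes the 235 calls of that comparison became 122 with no filter, 365 with at least 10 counts in every tumor, 3 for the pair alone, 0 with the covariate, and 615 and 396 by DESeq2. Leaving out each tumor in turn took them from 0 to 789, 0 in 7 of 12 cases. Those were off-dox tumors 2, 3 and 4, no-dox tumors 1, 2 and 4, and plus-dox tumor 4. There was 1 call when no-dox tumor 3 was dropped, 19 when it was plus-dox tumor 3, and 789 when it was off-dox tumor 1. Member pairs past the threshold ran from 0 to 3 when each tumor was left out, and 2 under every other alternative, although not always the same 2. With a replicate block 0 list genes and 0 genes in all were called in off-dox against no-dox. The numbers did not pair the tumors. Deviations of same-numbered tumors correlated at -0.09 on average, over 0.1 in 2 of 12 pairs, against 0.04 for different numbers, and 2 of 12 tumors correlated best with their own number. The causes of these changes were not tested. Depth limits Omd most, with 28.5 expected counts in its lowest tumor.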
